A study of Mus musculus with 24 samples.

Results

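The comparison described here is that of dorsal root ganglia (DRG) taken 1 day after an antibody agonist of the lymphotoxin beta receptor (LTβR) was injected into the hind paw, set against DRG taken 1 day after control IgG. By the labels it holds 6 of the 24 libraries of the series, 3 agonist and 3 IgG. Both groups were male C57 mice, 8 to 12 weeks old, with no genetic change named. Each mouse received 10 µg of antibody by injection into the sole of a hind paw, and the L3 to L5 ganglia of the injected side were taken 24 h later. The series also holds DRG of a group given 2 agonist injections and labelled day 6, and paw skin and spinal cord, of which the day-6 DRG and the day-1 paw skin are used below for comparison. The labels number the samples without saying whether they came from separate mice, and p-values therefore measure only the spread between these samples, which may be technical. Polyadenylated RNA was sequenced and counted per gene. Values are CPM, a gene's read count relative to the library's scaled total, and those of 3 libraries are given in the order of their numbers, 1 to 3.

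LTβR, a member of the tumour necrosis factor receptor family, binds membrane lymphotoxin and the ligand LIGHT. It is carried by stromal, endothelial and myeloid cells, and is known for building and maintaining lymphoid organs by inducing adhesion molecules and chemokines. Its hallmark is the non-canonical NF-κB route, in which the kinase NIK triggers processing of the Nfkb2 product p100 to p52, which enters the nucleus with RelB. A DRG contains sensory neuron somata wrapped by satellite glia, axons wrapped by Schwann cells, a dense vascular bed and resident macrophages, so a bulk library averages over all of these.

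Reads in genes numbered 2.95e+07 to 3.30e+07 in the agonist and 2.16e+07 to 3.10e+07 in the IgG libraries, with 17331 to 17565 genes detected. The ganglion marker Avil, a sensory neuron gene, was high throughout, at 905 to 1055 CPM. The genes listed as spinal cord markers were Mog, Mobp and Aqp4. Mog, a myelin gene of the central nervous system, reached at most 0.0322 CPM, and Mobp at most 1.13 CPM. Aqp4 was higher without overlap, at 14.0 to 20.3 CPM in agonist and 5.73 to 9.66 CPM in IgG DRG. The part of cord RNA in these libraries was not tested. IgG library 1 stood apart, with 31.5% of its uniquely placed reads outside annotated genes against 13.1 to 13.8% in the other 5 libraries. It also had high counts of a few genes, chosen after their values were seen: Rmrp, a non-coding RNA gene, was at 61.0 CPM in IgG library 1 and at 0 to 0.274 CPM in the others, and Lars2, a mitochondrial tRNA ligase gene, was at 10270 CPM there and at 88.1 to 104 CPM in the others. The 25 skeletal muscle genes summed to 8288, 582 and 134 CPM in agonist libraries 1, 2 and 3, against 129, 6033 and 6871 CPM in IgG libraries 1, 2 and 3. Muscle RNA thus split both groups and overlapped between them.

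Of 15461 genes tested, 25 were higher and 1 was lower in the agonist than in the IgG DRG at an adjusted p under 0.05, which is 0.162% and 0.00647% of the genes. Without IgG library 1 there were 10 higher and 2 lower genes, 11 of them among the 26. The test was edgeR's quasi-likelihood test with Benjamini-Hochberg adjustment over all genes, and all adjusted p-values below come from it. At an unadjusted p under 0.05 there were 1144 genes, or 7.40%. All 26 genes had groups that did not overlap, as did 7.55% of all genes tested in the higher direction and 5.65% in the lower. The log2 fold changes of the 26 ran from -0.53 to 2.26, and the folds of the 25 higher genes from 1.26 to 4.79. They were led by adhesion molecules of vessel walls, a chemokine, a prostaglandin synthase, subunits and an inhibitor of NF-κB, growth factor and cytokine receptor genes, and a clock gene. With the muscle genes as a covariate 27 genes were called, 20 of them among the 26. Leaving out single libraries gave 8 to 35 calls, and 8 of the 26 passed in all 6 such fits, namely Cx3cl1, Ptges, Icam1, Nfkbie, Csf1, Rasa3, Csf2rb2 and Arntl. When only the 2 groups compared were fitted, without the day-6 libraries, 11 genes were called, 10 of them among the 26. Those 10 were these 8 with Nfkb2 and Dab2, and all other called genes lost their call. In bulk tissue, more cells of a type and more RNA per cell cannot be told apart for any of the 26.

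**Figure D1:**
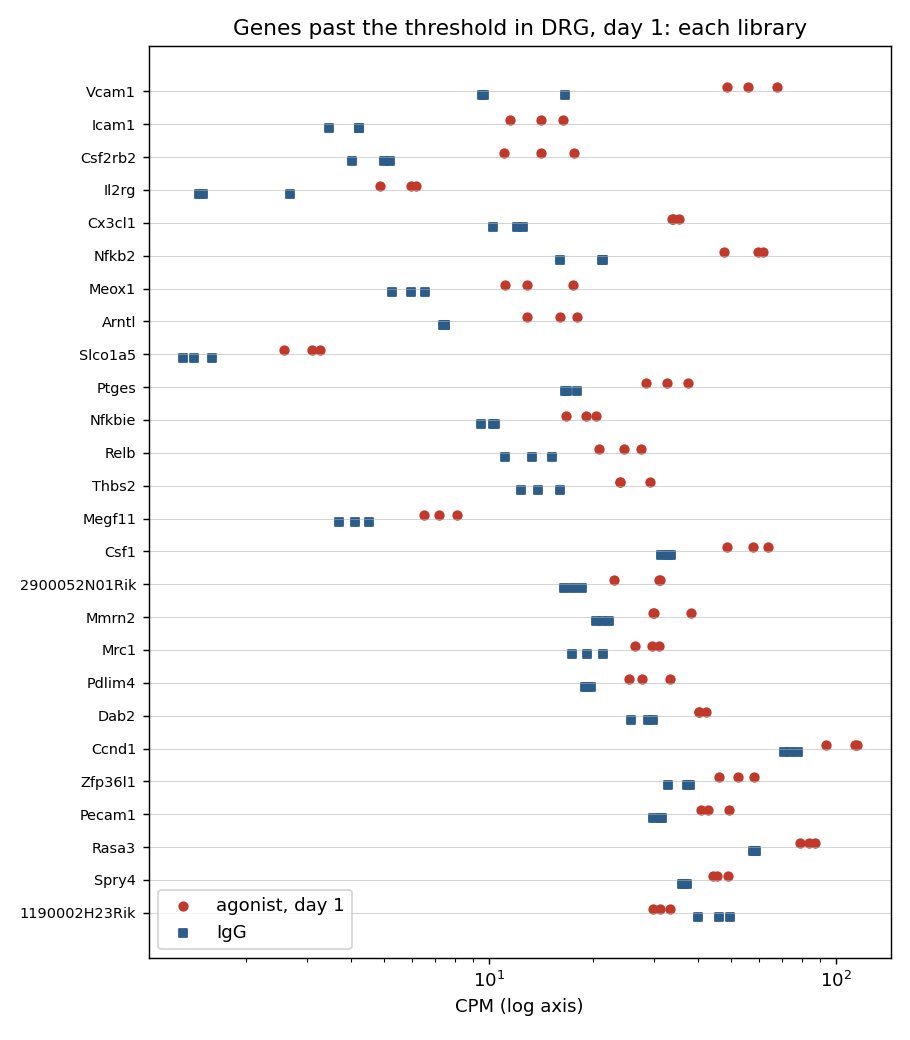
CPM of the 26 genes past the threshold in each of the 3 agonist (red circles) and 3 IgG (blue squares) DRG libraries, on a log axis. For every gene the circles and squares do not overlap, and 1190002H23Rik at the bottom is the one gene whose circles lie to the left.

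**Figure D2:**
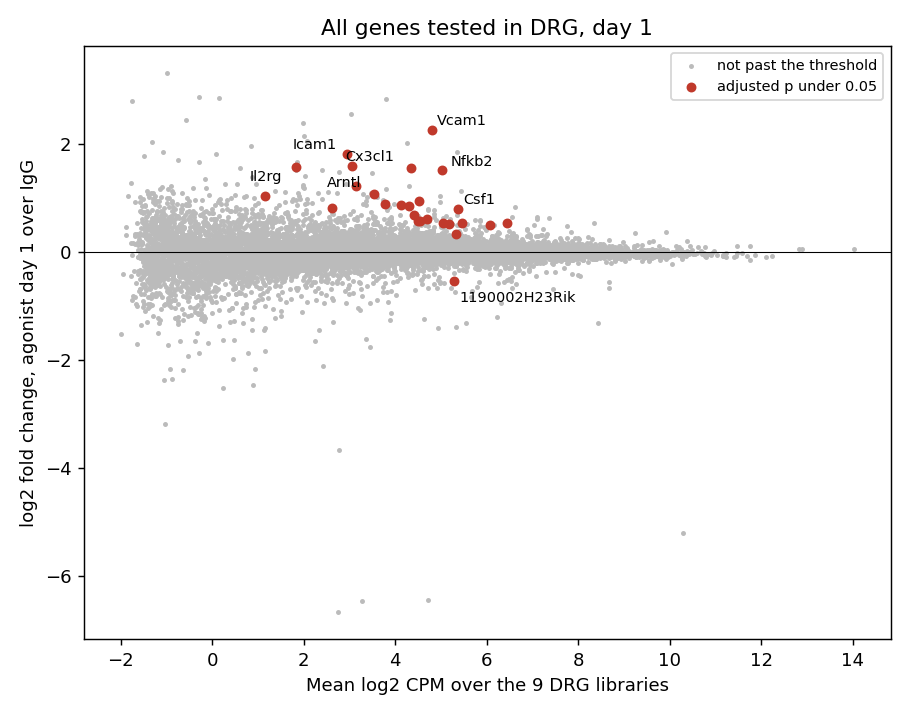
Log2 fold change of agonist over IgG DRG on day 1 against the mean log2 CPM over the 9 DRG libraries for the 15461 genes tested. The 26 genes past the threshold (red) lie above 0 apart from 1190002H23Rik, and the 4 grey points lowest on the plot, including Lars2 at -5.21, are genes with high counts in IgG library 1.

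The pathway by which the agonist signals was followed first. Nfkb2, which encodes p100, had 59.7, 61.9 and 47.7 CPM in agonist DRG against 21.4, 21.2 and 16.0 CPM in IgG DRG. Every agonist library was thus above every IgG library, by a wide margin relative to the spread, and Nfkb2 rose with a log2 fold change of 1.53 ± 0.17 (SE, adjusted p = 0.0139). Relb, the partner of p52, had 24.6, 27.4 and 20.7 CPM in agonist DRG against 15.2, 13.3 and 11.1 CPM in IgG DRG and rose by 0.88 ± 0.12 on the log2 scale (adjusted p = 0.0228). Nfkbie, which encodes the inhibitor IκBε and is itself a target of NF-κB, had 19.0, 20.3 and 16.7 CPM in agonist DRG against 10.4, 9.50 and 10.3 CPM in IgG DRG. The IgG libraries were tight and the agonist libraries all higher, giving a rise of 0.89 ± 0.09 on the log2 scale (adjusted p = 0.00373). Without any one of IgG library 2, agonist library 1 or agonist library 2, neither Nfkb2 nor Relb passed. Nfkb2 was also lost without IgG library 1 and Relb without IgG library 3, with adjusted p of up to 0.110 for Nfkb2 and 0.130 for Relb. Nfkbie passed whichever library was left out.

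The receptor itself and its adaptors were closer between groups. Ltbr had 37.3, 40.9 and 36.2 CPM in agonist DRG against 32.2, 34.7 and 35.4 CPM in IgG DRG, a log2 difference of 0.16 ± 0.07 (adjusted p = 0.672). Its ligands were scarce: Ltb lay at 0.578 to 0.848 CPM in agonist and 0.510 to 0.805 CPM in IgG DRG (log2 0.08 ± 0.29, adjusted p = 0.984), and Lta and Tnfsf14, which encodes LIGHT, had at most 10 and 18 counts in any DRG library and were not tested. Birc3, the ubiquitin ligase cIAP2 that restrains NIK, had 11.8, 11.4 and 9.76 CPM in agonist DRG against 6.39, 5.75 and 8.05 CPM in IgG DRG, without overlap, but did not pass (log2 0.70 ± 0.14, adjusted p = 0.103). Map3k14, the gene of NIK, was at 14.3 to 16.6 CPM in agonist and 11.01 to 12.3 CPM in IgG DRG (log2 0.46 ± 0.09, adjusted p = 0.125). The remaining members Traf2, Birc2, Traf3 and Chuk had log2 differences of 0.42 ± 0.11, 0.26 ± 0.07, 0.14 ± 0.06 and 0.07 ± 0.06, with adjusted p of 0.286, 0.316, 0.612 and 0.879. Of the 12 genes listed for LTβR and its non-canonical route, 10 were tested, 2 rose, and all 10 had positive values with a median of 0.34, beside a median of -0.0011 over all genes tested. In 8 of the 10 the agonist libraries were all above the IgG libraries, beside 7.55% of all genes tested. For every list below, the shares to set beside such counts are 7.55% in the higher and 5.65% in the lower direction.

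Among genes listed for the canonical arm, 1 rose. RNA counts alone do not show which arm signalled, and processing of p100 was not measured. Of 16 genes of canonical NF-κB and its feedback inhibitors, Nfkbie was the one that rose, 3 had groups without overlap in the higher direction and the median log2 difference was 0.10. Tnfaip3, the feedback inhibitor A20, was just short of the threshold, with 16.9, 18.03 and 11.2 CPM in agonist DRG against 8.59, 7.68 and 7.63 CPM in IgG DRG (log2 0.95 ± 0.16, adjusted p = 0.0515). Nfkbia, the inhibitor IκBα, was at 70.6, 79.1 and 75.3 CPM in agonist DRG and at 35.6, 42.8 and 71.5 CPM in IgG DRG. The spread of Nfkbia came from the IgG libraries, and it did not pass (log2 0.58 ± 0.33, adjusted p = 0.791).

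The promoters of the responding genes were searched for a consensus to which NF-κB binds, because the changed genes include its own subunits. RefSeq promoter windows of GRCm38.p6, 250 bases before to 50 bases after an annotated start, were at hand for 18 of the 26 genes. The NF-κB consensus of 10 letters was GGGRNWYYCC, with R for A or G, N for any base, W for A or T and Y for C or T. Read on both strands, it was present in windows of 5 of the 18 genes (27.8%), namely Nfkb2, Nfkbie, Csf1, Rasa3 and Thbs2. It was present in 5.14% of the 27025 genes of that table and in 6.42% of the 12078 tested genes with a window. Nfkb2 is shown as the window with the most matches, 4 on both strands that overlap in part, beside the single matches of Nfkbie and of the growth factor Csf1, and Cx3cl1, the gene with the smallest p, as a window without one. Sequences are printed 5′ to 3′ on the gene's strand, with the consensus in capitals, at chr19:46304487-46304786 (plus strand), chr17:45555450-45555749 (plus), chr3:107760420-107760719 (minus) and chr8:94771930-94772229 (plus).
Nfkb2: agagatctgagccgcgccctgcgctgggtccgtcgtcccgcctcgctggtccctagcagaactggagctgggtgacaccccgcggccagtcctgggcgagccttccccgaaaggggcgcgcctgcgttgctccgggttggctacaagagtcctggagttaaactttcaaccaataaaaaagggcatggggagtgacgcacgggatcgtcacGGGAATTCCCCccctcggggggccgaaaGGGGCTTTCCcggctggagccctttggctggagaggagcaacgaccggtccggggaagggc
Nfkbie: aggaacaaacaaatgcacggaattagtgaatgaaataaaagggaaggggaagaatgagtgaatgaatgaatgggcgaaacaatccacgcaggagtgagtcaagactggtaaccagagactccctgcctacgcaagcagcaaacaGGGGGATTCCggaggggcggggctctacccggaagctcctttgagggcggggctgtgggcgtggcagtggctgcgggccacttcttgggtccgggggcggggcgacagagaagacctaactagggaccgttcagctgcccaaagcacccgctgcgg
Csf1: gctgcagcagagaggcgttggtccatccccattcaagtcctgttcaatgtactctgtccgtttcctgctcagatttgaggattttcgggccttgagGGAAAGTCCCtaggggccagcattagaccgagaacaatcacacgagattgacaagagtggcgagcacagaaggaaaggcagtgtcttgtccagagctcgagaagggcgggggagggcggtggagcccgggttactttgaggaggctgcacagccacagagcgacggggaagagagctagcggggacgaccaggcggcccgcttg
Cx3cl1: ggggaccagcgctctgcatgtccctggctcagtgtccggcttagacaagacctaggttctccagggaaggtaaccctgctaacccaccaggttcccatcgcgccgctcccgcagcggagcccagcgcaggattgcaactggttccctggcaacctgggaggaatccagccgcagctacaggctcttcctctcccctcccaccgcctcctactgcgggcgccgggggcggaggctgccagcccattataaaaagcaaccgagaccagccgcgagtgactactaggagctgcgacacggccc
Nfkb2 had 2 more annotated windows, which overlap each other and share 1 of the 2 matches they hold. Relative to the start, the match began at base -106 in Nfkbie and at base -154 in Csf1. A match describes the letters and is not a measured binding site, and the window of Cx3cl1, like those of Icam1 and Ptges, says only that these letters are not within it. Sequences that depart from the consensus were not counted. The Icam1 window holds tggaaattcc, which departs from it in the first letter. The gene name Vcam1 had no window in the table, nor had Relb, Meox1, Pecam1, Megf11, Mmrn2, Spry4 and Ccnd1.

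The 2 largest changes of the 26 were in adhesion molecules of vessel walls. Vcam1, the endothelial ligand of the leukocyte integrin VLA4, had 56.1, 67.9 and 48.5 CPM in agonist DRG against 9.58, 9.68 and 16.5 CPM in IgG DRG. The lowest agonist library was far above the highest IgG library, and Vcam1 rose 4.79-fold (log2 2.26 ± 0.22, adjusted p = 0.0124). Icam1, the ligand of the integrin LFA1, had 16.4, 14.1 and 11.5 CPM in agonist DRG against 4.23, 3.46 and 4.22 CPM in IgG DRG and rose by 1.82 ± 0.19 on the log2 scale (adjusted p = 0.00373). Pecam1, an adhesion molecule of endothelial junctions, had 49.1, 42.8 and 40.9 CPM in agonist DRG against 31.5, 29.7 and 31.6 CPM in IgG DRG, a smaller rise of 0.52 ± 0.07 (adjusted p = 0.0173). Of 12 tested adhesion molecules these 3 rose and 6 had all agonist above all IgG libraries. Their median log2 difference was 0.35, and 0.09 without agonist library 1. F11r and Cd34, of junctions and of endothelial surfaces, were at 17.3 to 23.8 and 87.4 to 102 CPM in agonist DRG against 14.2 to 14.7 and 80.3 to 80.7 CPM in IgG DRG. Neither passed, each with an adjusted p of 0.265. The endothelial selectin Sele had at most 10 counts in any DRG library and the mucosal addressin Madcam1 at most 6.

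Endothelial identity genes were mixed. Of 20 endothelial identity genes, Mmrn2, a matrix protein made by endothelium, was the one called: it had 38.2, 30.0 and 29.8 CPM in agonist DRG against 21.2, 22.3 and 20.4 CPM in IgG DRG (log2 0.62 ± 0.10, adjusted p = 0.0452). The list had a median log2 difference of 0.08, which lay between -0.0029 and 0.14 as single libraries were left out, and a summed level of 560 to 660 CPM in agonist and 557 to 625 CPM in IgG DRG, so the groups overlapped. Cdh5, the cadherin of endothelial junctions, was at 60.5, 45.8 and 44.9 CPM in agonist DRG and 41.0, 43.1 and 45.6 CPM in IgG DRG (log2 0.22 ± 0.11, adjusted p = 0.713). Sox17, a transcription factor of arterial endothelium, was lower without overlap, at 10.4, 10.1 and 10.4 CPM in agonist DRG against 13.2, 14.6 and 15.3 CPM in IgG DRG, and fell just short of the threshold (log2 -0.48 ± 0.09, adjusted p = 0.0646). Tie1 and Ptprb, both endothelial receptor genes, also lay below the IgG range, with log2 differences of -0.27 ± 0.08 and -0.35 ± 0.10 and adjusted p of 0.366 and 0.334. The call on Vcam1 was lost without IgG library 2 or agonist library 1 (adjusted p up to 0.0786), and when only the 2 groups compared were fitted (adjusted p = 0.133). That on Pecam1 was lost without any IgG library or agonist library 2 (up to 0.110), and that on Mmrn2 in every fit with a library left out but the one without agonist library 3 (up to 0.152). Pecam1 and Mmrn2 were lost too when only the 2 groups compared were fitted (adjusted p = 0.100 and 0.119).

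Among the targets by which LTβR shapes lymphoid organs, Vcam1 and Icam1 were the 2 that rose of 6 tested. Enpp2, autotaxin, had 88.8, 89.6 and 84.7 CPM in agonist DRG against 62.2, 73.2 and 68.7 CPM in IgG DRG and did not pass (log2 0.37 ± 0.07, adjusted p = 0.112). The stromal chemokine gene Cxcl12 was at 83.3, 64.2 and 59.4 CPM in agonist DRG against 84.9, 84.6 and 83.8 CPM in IgG DRG (log2 -0.29 ± 0.12, adjusted p = 0.631), and the interleukin gene Il7 had a log2 difference of -0.13 ± 0.11 (adjusted p = 0.903). The other 7 listed genes were not tested. No DRG library had a count of Ccl19, Ccl21a or Glycam1 (0 in each). Cxcl13, the chemokine that gathers B cells, had 7, 1 and 0 counts in agonist and 1, 0 and 0 counts in IgG libraries.

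Cx3cl1, which encodes the membrane-bound chemokine fractalkine, had the smallest p of all genes. It was at 33.9, 35.3 and 33.8 CPM in agonist DRG against 12.1, 10.3 and 12.6 CPM in IgG DRG. Both groups were tight and far apart, and Cx3cl1 rose 2.95-fold (log2 1.56 ± 0.10, adjusted p = 8.35e-05). Its receptor gene Cx3cr1, carried by macrophages, was at 19.0, 19.9 and 15.5 CPM in agonist DRG against 9.86, 9.97 and 9.66 CPM in IgG DRG, just short of the threshold (log2 0.88 ± 0.15, adjusted p = 0.0515). Of the 31 chemokine ligand genes listed, 19 were tested, Cx3cl1 rose, 9 had groups without overlap in the higher direction and all 19 log2 differences were positive, with a median of 0.42, and of 0.85 without IgG library 3. At an unadjusted p under 0.05 there were 8 of the 19, and DESeq2 called 5, limma voom 1. Over all 15461 genes tested, 7.40% had an unadjusted p under 0.05. Of these 15461 genes edgeR called 26, DESeq2 131 and limma voom 36. These figures are to be set beside such counts for every list below. The monocyte attractant Ccl2 had 24.7, 20.8 and 8.47 CPM in agonist DRG against 2.58, 3.68 and 2.90 CPM in IgG DRG. All agonist libraries were higher but differed widely among themselves, so this 5.87-fold difference did not pass (log2 2.55 ± 0.43, adjusted p = 0.109). Ccl7, a relative of Ccl2, behaved alike library by library, at 10.1, 9.67 and 3.94 CPM in agonist DRG against 1.55, 2.40 and 1.71 CPM in IgG DRG (log2 2.06 ± 0.37, adjusted p = 0.105). The neutrophil attractant Cxcl1 was low, at 0.340 to 1.40 CPM in agonist and 0.0364 to 0.188 CPM in IgG DRG (log2 3.32 ± 0.84, adjusted p = 0.286). Cxcl16 had 9.01 to 11.02 CPM in agonist against 7.04 to 7.92 CPM in IgG DRG (log2 0.42 ± 0.11, adjusted p = 0.266).

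Growth factor and cytokine receptor genes followed. Csf1, the macrophage growth factor that injured sensory neurons are known to make, had 57.6, 64.0 and 48.6 CPM in agonist DRG against 33.0, 33.5 and 31.3 CPM in IgG DRG, a rise of 0.80 ± 0.09 on the log2 scale (adjusted p = 0.00396). Its receptor gene Csf1r was at 55.4, 52.1 and 60.1 CPM in agonist DRG against 37.6, 51.3 and 50.9 CPM in IgG DRG and did not pass (log2 0.26 ± 0.11, adjusted p = 0.657). Csf2rb2, the beta subunit that mice use for interleukin-3, had 17.6, 14.1 and 11.1 CPM in agonist DRG against 4.98, 5.21 and 4.02 CPM in IgG DRG and rose by 1.59 ± 0.18 (adjusted p = 0.00406). Csf2rb, the beta subunit shared with GM-CSF and interleukin-5, had 18.9, 14.7 and 10.7 CPM in agonist DRG against 6.67, 7.57 and 6.73 CPM in IgG DRG (log2 1.08 ± 0.18, adjusted p = 0.0595). The genes Csf2rb and Csf2rb2 are near-identical neighbours, so their counts, which leave out reads placed at several positions, are uncertain for each. Il2rg, the gamma chain shared by several interleukin receptors, had 5.97, 6.17 and 4.86 CPM in agonist DRG against 1.503, 1.46 and 2.67 CPM in IgG DRG, where it had 32 to 83 counts, and rose by 1.58 ± 0.25 (adjusted p = 0.0427). Of 14 tested genes of gamma chain receptors and their signalling, Il2rg was the one that rose and the median log2 difference was 0.09. The call on Il2rg was lost without IgG library 1 or 2 or agonist library 1 or 2 (adjusted p up to 0.164), whereas Cx3cl1, Csf1 and Csf2rb2 passed whichever library was left out.

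Ptges, the inducible synthase that makes prostaglandin E2, a sensitiser of nociceptors, had 37.6, 32.7 and 28.4 CPM in agonist DRG against 17.99, 16.8 and 16.5 CPM in IgG DRG. The groups were well separated and Ptges rose by 0.94 ± 0.10 on the log2 scale (adjusted p = 0.00373), whichever library was left out. It was the one called gene of 13 of prostaglandin E2 synthesis and reception, whose median log2 difference was -0.03. Ptgs2, the inducible cyclooxygenase upstream of it, was at 0.136 to 0.196 CPM in agonist and 0.146 to 0.376 CPM in IgG DRG (log2 -0.50 ± 0.60, adjusted p = 0.942), and Ptgs1 at 2.98 to 5.87 CPM in agonist and 3.64 to 5.18 CPM in IgG DRG (log2 -0.03 ± 0.23, adjusted p = 0.991). The receptor gene Ptger1 was at 17.8 to 19.0 CPM in agonist and 19.9 to 23.3 CPM in IgG DRG (log2 -0.19 ± 0.08, adjusted p = 0.669).

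**Figure D3:**
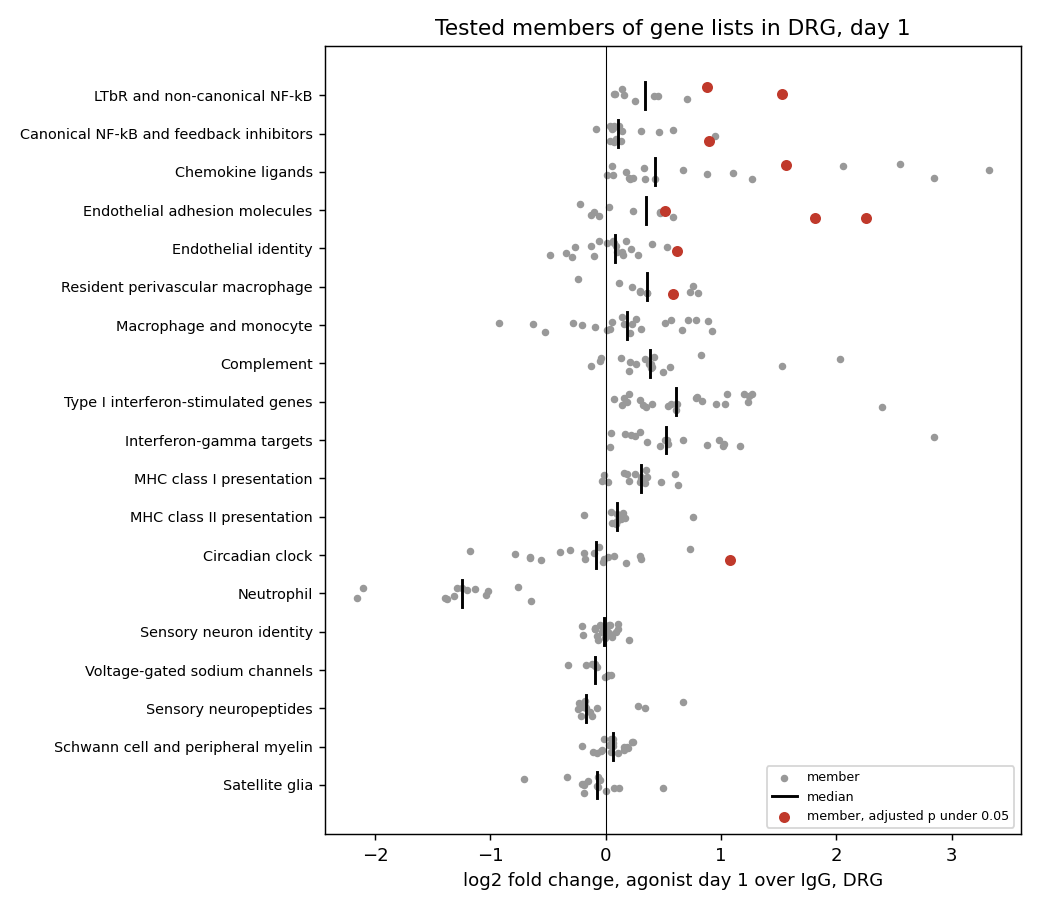
Log2 fold change of agonist over IgG DRG on day 1 for every tested member of 19 gene lists, with the median as a bar and members past the threshold in red. The LTβR, chemokine, adhesion and interferon lists lie mostly to the right of 0, the neutrophil list to the left and the neuronal and glial lists around 0.

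Of the genes of resident macrophages, 1 passed the test. Mrc1, the macrophage mannose receptor, had 31.0, 26.5 and 29.6 CPM in agonist DRG against 17.4, 21.3 and 19.2 CPM in IgG DRG and rose by 0.59 ± 0.09 on the log2 scale (adjusted p = 0.0454). Of 12 tested genes of resident perivascular macrophages, Mrc1 rose, 7 had all agonist above all IgG libraries, 1 had a negative difference and the median log2 difference was 0.36. Their summed level was 432, 370 and 408 CPM in agonist DRG against 335, 354 and 357 CPM in IgG DRG. Pf4 and Mgl2, at 7.99 to 8.83 and 14.3 to 16.9 CPM in agonist DRG, were at 2.72 to 6.18 and 11.6 to 13.3 CPM in IgG DRG (adjusted p = 0.479 and 0.521). Dab2, an endocytic adaptor, was tight in both groups, with 40.5, 40.4 and 42.3 CPM in agonist DRG against 25.7, 28.8 and 29.7 CPM in IgG DRG, and rose by 0.55 ± 0.07 (adjusted p = 0.0139). In the wider list of 22 macrophage and monocyte genes 0 were called by edgeR, 10 had an unadjusted p under 0.05, and DESeq2 and limma voom called 1 each. There 8 were higher and 3 lower without overlap, 6 of the 22 differences were negative, and the median was 0.19, and 0.10 without IgG library 1. The lower ones included the integrin gene Itgam (log2 -0.53 ± 0.15, adjusted p = 0.352) and the higher ones Cd68 (log2 0.56 ± 0.16, adjusted p = 0.329). The call on Mrc1 was lost whichever library was left out (adjusted p up to 0.169), and that on Dab2 without IgG library 1 or 2 or agonist library 1 or 2 (up to 0.0653).

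Complement genes had mostly positive differences, 15 of 18, and none passed edgeR's test. The 18 tested genes summed to 1345, 1288 and 1248 CPM in agonist DRG against 1086, 1106 and 1033 CPM in IgG DRG. In 12 of the 18 the agonist libraries were all above the IgG libraries, and the median log2 difference was 0.38, with 0 called by edgeR, 12 at an unadjusted p under 0.05, 6 called by DESeq2 and 1 by limma voom. C1qc, a subunit of the recognition molecule C1q, had 32.3, 35.2 and 34.0 CPM in agonist DRG against 23.7, 26.6 and 26.9 CPM in IgG DRG (log2 0.39 ± 0.07, adjusted p = 0.0652). Cfb, factor B of the alternative pathway, had 12.8, 6.54 and 6.32 CPM in agonist DRG against 2.44, 2.95 and 3.44 CPM in IgG DRG (log2 1.53 ± 0.29, adjusted p = 0.105). Agonist library 1 was high for Cfb and also held more fat-cell RNA: the 10 listed adipocyte genes, among them Cfd, summed to 159, 50.4 and 48.6 CPM in agonist DRG and to 37.9, 39.1 and 60.6 CPM in IgG DRG. Of 9 tested adipocyte genes 4 were higher without overlap, with a median log2 difference of 1.47, and of 0.51 without agonist library 1, and the part of adipocyte RNA in these results was not tested.

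**Figure D4:**
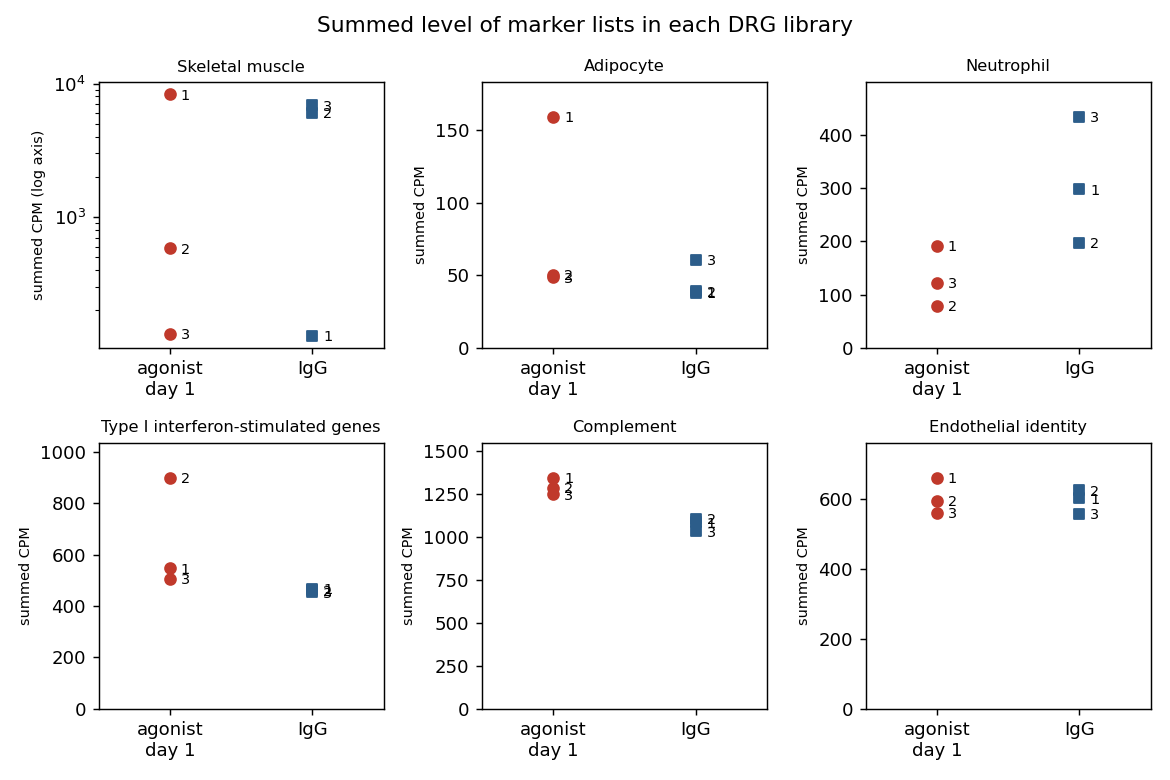
Summed CPM of 6 marker lists in each of the 3 agonist (red circles) and 3 IgG (blue squares) DRG libraries, numbered by library, with a log axis for skeletal muscle. Complement separates the groups, type I interferon-stimulated genes are highest in agonist library 2, and muscle is high in 3 libraries from both groups.

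Interferon-stimulated genes were highest in agonist library 2. The 25 type I interferon-stimulated genes summed to 546, 900 and 505 CPM in agonist DRG against 467, 461 and 453 CPM in IgG DRG. All 25 log2 differences were positive and 14 had groups without overlap, with a median of 0.61, yet 0 passed edgeR's test, with 9 at an unadjusted p under 0.05, 2 called by DESeq2 and 0 by limma voom. Without agonist library 2 the median was 0.25. Mx1, an antiviral GTPase gene, had 2.84, 16.3 and 3.94 CPM in agonist DRG against 1.27, 1.02 and 2.06 CPM in IgG DRG (log2 2.40 ± 0.88, adjusted p = 0.621). The interferon-induced chemokine gene Cxcl10 had 17.99, 63.1 and 18.1 CPM in agonist DRG against 7.47, 2.77 and 3.77 CPM in IgG DRG (log2 2.85 ± 0.72, adjusted p = 0.373). In both genes agonist library 2 was far above the other 2 agonist libraries. All 18 tested interferon-gamma targets had positive differences too, with a median of 0.52, and of 0.12 without agonist library 2. Of these, 2 had groups without overlap, 0 passed edgeR's test, 3 had an unadjusted p under 0.05, and DESeq2 called 1 and limma voom 0. They summed to 440, 764 and 349 CPM in agonist DRG against 539, 289 and 336 CPM in IgG DRG, so that IgG library 1 lay above 2 of the agonist libraries. Among MHC class I genes, H2-K1 had 197, 259 and 174 CPM in agonist DRG against 142, 124 and 142 CPM in IgG DRG (log2 0.63 ± 0.15, adjusted p = 0.297), and 5 of 16 in that list were higher without overlap, as were 0 of 10 MHC class II genes.

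Neutrophil genes had negative differences. All 13 tested members had negative values, 6 of them without overlap, with a median log2 difference of -1.25 and a summed level of 191, 79.3 and 122 CPM in agonist DRG against 297, 197 and 433 CPM in IgG DRG. By edgeR, DESeq2 and limma voom 0 passed, with 4 at an unadjusted p under 0.05, and the fitted median lay between -1.68 and -0.85 as single libraries were left out, the smallest difference being that without IgG library 3. Red blood cell genes had values of the same sign: all 6 tested erythroid genes had negative differences, with a median of -0.55, and of 0.03 without IgG library 3. Of these 6, 0 were called by edgeR, DESeq2 or limma voom, 0 had an unadjusted p under 0.05, and their sum was 73.3, 35.2 and 49.3 CPM in agonist DRG against 52.8, 51.7 and 91.0 CPM in IgG DRG. B cell genes were also highest in IgG library 3, summing to 3.77 to 5.64 CPM in agonist DRG against 2.77, 3.06 and 10.6 CPM in IgG DRG. The globin genes Hba-a1, Hba-a2, Hbb-b1 and Hbb-b2 had 0 counts in every DRG library, so the erythroid values do not include them. Mpo and Elane of the neutrophil list were likewise highest in IgG library 3. Mpo was at 1.43 to 2.93 CPM in agonist DRG against 3.66, 2.88 and 18.5 CPM in IgG DRG. Elane was at 0.213 to 1.24 CPM in agonist DRG against 1.36, 0.983 and 6.28 CPM in IgG DRG. The part of blood cell RNA in the neutrophil values was not tested. Ngp, a granule protein gene of immature neutrophils, had 24.6, 11.6 and 18.5 CPM in agonist DRG against 43.1, 27.4 and 71.6 CPM in IgG DRG (log2 -1.38 ± 0.57, adjusted p = 0.669). Lists of T cells, B cells, dendritic cells and natural killer cells had 0 members without overlap in either direction among 7, 7, 8 and 4 tested.

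Arntl, the clock transcription factor also called Bmal1, had 17.99, 16.1 and 12.9 CPM in agonist DRG against 7.37, 7.46 and 7.47 CPM in IgG DRG. The IgG libraries were nearly equal, and Arntl rose by 1.07 ± 0.12 on the log2 scale (adjusted p = 0.00512), whichever library was left out. Of 20 tested clock genes it was the one called, and their median was -0.08. Without overlap 4 of the 20 were higher and 4 lower, beside 7.55% and 5.65% of all genes tested. Npas2, which pairs with Bmal1, was also higher without overlap, at 5.70, 6.05 and 6.70 CPM in agonist DRG against 3.80, 3.46 and 3.86 CPM in IgG DRG (log2 0.73 ± 0.14, adjusted p = 0.0928). By DESeq2, 2 clock genes were called higher and 3 lower, and by limma voom Arntl alone. Dbp, a clock output gene, had 24.6, 23.4 and 23.2 CPM in agonist DRG against 28.2, 44.0 and 39.8 CPM in IgG DRG (log2 -0.66 ± 0.17, adjusted p = 0.322), and Per3, a period gene of the clock, had 25.6, 28.3 and 23.2 CPM in agonist DRG against 29.7, 43.0 and 40.9 CPM in IgG DRG (log2 -0.56 ± 0.16, adjusted p = 0.366). Gm129, a repressor of the clock, was at 1.597 to 1.97 CPM in agonist and 2.72 to 5.95 CPM in IgG DRG (log2 -1.18 ± 0.27, adjusted p = 0.187). In Dbp and Per3 IgG library 1 lay nearest to the agonist libraries.

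A further group of called genes act in intracellular signalling and growth. Rasa3, which switches off Ras and Rap GTPases, had 87.0, 84.1 and 78.9 CPM in agonist DRG against 57.7, 59.1 and 58.5 CPM in IgG DRG, a rise of 0.51 ± 0.06 on the log2 scale (adjusted p = 0.00396). Spry4, an inhibitor of receptor tyrosine kinase signalling, showed the smallest change of the 26, with 45.4, 44.3 and 49.0 CPM in agonist DRG against 37.3, 36.5 and 36.1 CPM in IgG DRG (log2 0.33 ± 0.05, adjusted p = 0.0454). Ccnd1, cyclin D1, had 114, 115 and 93.8 CPM in agonist DRG against 73.9, 77.8 and 70.9 CPM in IgG DRG and rose by 0.54 ± 0.09 (adjusted p = 0.0484). It stood alone among 26 cell cycle genes. Beside 5.65% of all genes tested, 4 of these 26 were lower without overlap. Their median log2 difference was -0.15, and lay between -0.32 without agonist library 1 and 0.0093 without IgG library 3. Zfp36l1, which destabilises AU-rich messenger RNAs, had 58.3, 52.4 and 46.0 CPM in agonist DRG against 37.2, 38.1 and 33.0 CPM in IgG DRG (log2 0.53 ± 0.08, adjusted p = 0.0452). The homeobox gene Meox1 had 17.4, 12.9 and 11.2 CPM in agonist DRG against 5.26, 6.55 and 5.95 CPM in IgG DRG and rose by 1.22 ± 0.16 (adjusted p = 0.0166). Rasa3 passed whichever library was left out and Spry4 in none of the 6 such fits (adjusted p up to 0.178). Ccnd1 and Zfp36l1 passed only without agonist library 3 (up to 0.221 and 0.152 otherwise), and Meox1 was lost without any IgG library or agonist library 2 (up to 0.0874).

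The remaining called genes were of matrix, cytoskeleton and transport. Thbs2, a matrix thrombospondin, had 29.2, 23.9 and 23.9 CPM in agonist DRG against 12.4, 13.9 and 16.1 CPM in IgG DRG and rose by 0.86 ± 0.13 on the log2 scale (adjusted p = 0.0302). Pdlim4, an actin-associated PDZ and LIM protein gene, had 33.4, 27.6 and 25.4 CPM in agonist DRG against 19.7, 19.0 and 19.2 CPM in IgG DRG (log2 0.58 ± 0.09, adjusted p = 0.0484). Megf11, a transmembrane protein with EGF-like repeats, had 6.52, 8.09 and 7.21 CPM in agonist DRG against 3.71, 4.11 and 4.51 CPM in IgG DRG (log2 0.82 ± 0.13, adjusted p = 0.0403). The organic anion transporter gene Slco1a5 had few reads, at 2.58, 3.10 and 3.26 CPM in agonist DRG against 1.597, 1.31 and 1.42 CPM in IgG DRG, where it had 34 to 44 counts (log2 1.05 ± 0.17, adjusted p = 0.0484). The provisional gene 2900052N01Rik had 30.9, 22.99 and 31.1 CPM in agonist DRG against 17.5, 16.5 and 18.5 CPM in IgG DRG (log2 0.69 ± 0.11, adjusted p = 0.0484). The one gene that fell was 1190002H23Rik, which RefSeq lists under the symbol Rgcc, a regulator of cell cycle that responds to complement. It had 29.8, 31.3 and 33.3 CPM in agonist DRG against 40.2, 49.7 and 46.0 CPM in IgG DRG (log2 -0.53 ± 0.09, adjusted p = 0.0476). Megf11 and Slco1a5 lost their call whichever library was left out (adjusted p up to 0.164 and 0.187). Pdlim4 passed only without agonist library 3 (up to 0.181), 1190002H23Rik only without IgG library 1 (up to 0.189) and 2900052N01Rik only without agonist library 2 (up to 0.212), and Thbs2 only without IgG library 3 or agonist library 3 (up to 0.160).

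Sensory neuron genes showed little difference. Of 20 neuron identity genes 0 were called by edgeR, DESeq2 or limma voom and 2 had an unadjusted p under 0.05. Of these 20, 0 were higher and 2 lower without overlap, beside 7.55% and 5.65% of all genes tested. The median log2 difference of the 20 was -0.02. Of 11 voltage-gated sodium channel genes 0 were called by any of these tools, 0 had an unadjusted p under 0.05 and the median was -0.10. Scn10a, the sodium channel of nociceptors, was at 642, 658 and 718 CPM in agonist DRG and 809, 706 and 643 CPM in IgG DRG (log2 -0.10 ± 0.08, adjusted p = 0.880). The capsaicin receptor gene Trpv1 was at 109, 110 and 180 CPM in agonist DRG and 151, 122 and 171 CPM in IgG DRG (log2 -0.16 ± 0.27, adjusted p = 0.963), and the 13 tested TRP channel genes had a median of -0.03. Calca, the gene of the neuropeptide CGRP, was at 866, 910 and 1078 CPM in agonist DRG and 1200, 1042 and 1066 CPM in IgG DRG (log2 -0.21 ± 0.10, adjusted p = 0.670). The 13 tested neuropeptide genes had a median of -0.17, with 10 negative and 3 positive differences. For 22 potassium channel genes the median was -0.06, with 16 negative and 6 positive differences. In both lists 0 were called by edgeR, DESeq2 or limma voom. Among 21 tested nerve injury genes Csf1 was the one called. Atf3, the usual marker of axonal injury, was at 18.3, 16.9 and 10.8 CPM in agonist DRG and 12.4, 18.5 and 8.72 CPM in IgG DRG (log2 0.21 ± 0.29, adjusted p = 0.952). Of the Schwann cell and satellite glia lists 0 of 19 and 0 of 15 genes were called by edgeR, 0 and 1 by DESeq2 and by limma voom, and 1 and 4 had an unadjusted p under 0.05, with medians of 0.06 and -0.08. The glutamate transporter gene Slc1a3 of satellite glia came nearest, at 28.6, 28.5 and 26.1 CPM in agonist DRG against 17.0, 19.8 and 21.9 CPM in IgG DRG (log2 0.50 ± 0.09, adjusted p = 0.0785).

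Values at day 6 come from the 3 DRG libraries of that label, which are set against the same IgG libraries. Those IgG libraries were taken 24 h after 1 injection, whereas the day-6 group had 2 agonist injections and no IgG group of its own. Elapsed time, the second injection and the unmatched control therefore cannot be told apart. On day 6, 0 of 15461 genes passed edgeR's test (0.00%), with 557 at an unadjusted p under 0.05 and 2 by DESeq2. Of the 25 genes higher on day 1, 24 had all day-6 libraries below all day-1 libraries, the exception being Megf11. These genes were chosen for high day-1 values against the same IgG libraries, which by itself favours lower values on day 6, so the counts are a description. Their day-6 log2 fold changes were under 50% of the day-1 value in 22 of the 25 genes, and 15 overlapped the IgG libraries. Cx3cl1 was at 33.9, 35.3 and 33.8 CPM on day 1 and at 16.0, 13.8 and 12.9 CPM on day 6, against 12.1, 10.3 and 12.6 CPM in IgG DRG (day-6 log2 0.29 ± 0.10). Vcam1 was at 56.1, 67.9 and 48.5 CPM on day 1 and at 13.6, 13.1 and 14.5 CPM on day 6, within the IgG range of 9.58 to 16.5 CPM (day-6 log2 0.19 ± 0.22). Megf11, Arntl and Il2rg kept the largest differences, with day-6 log2 values of 0.73 ± 0.13, 0.63 ± 0.12 and 0.60 ± 0.25, none past the threshold (edgeR adjusted p = 0.995 each). Arntl had 12.6, 10.6 and 11.3 CPM on day 6, between the day-1 and IgG libraries.

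Paw skin at day 1, where the antibody was injected, gave 1 called gene of 15287 (0.00654%), with 1626 at an unadjusted p under 0.05 (10.6%). That gene was Relb, at 38.1, 41.1 and 36.3 CPM in agonist paw against 13.2, 15.7 and 14.7 CPM in IgG paw (log2 1.41 ± 0.12, edgeR adjusted p = 0.0157). Of the 25 genes higher in DRG, 19 had positive and 6 negative log2 differences in paw, beside 50.8% positive over all paw genes. An unadjusted p under 0.05 was found for 13, among them Ptges, whose paw difference was negative. The gene that fell in DRG, 1190002H23Rik, had a positive difference in paw (log2 0.79 ± 0.40, adjusted p = 0.502). The call on Relb was lost without any one of the paw libraries other than IgG library 1. The log2 differences in paw were 1.22 ± 0.15 for Nfkb2, 1.68 ± 0.23 for Nfkbie and 2.23 ± 0.41 for Vcam1, none of them past the threshold (adjusted p = 0.139, 0.139 and 0.326). Ptges lay in the opposite direction, at 46.5, 35.6 and 41.5 CPM in agonist paw against 89.2, 64.3 and 42.3 CPM in IgG paw (log2 -0.66 ± 0.24, adjusted p = 0.419). Arntl was level between groups in paw, with a log2 difference of -0.04 ± 0.17 (adjusted p = 0.916).

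The difference between the DRG and paw responses was tested as an interaction over 18 libraries, and 0 of 16461 genes passed edgeR's test, with 1594 at an unadjusted p under 0.05 (9.68%) and 59 by DESeq2. In simulated data this fit recovered 43 of 100 genes changed 2-fold, so the lack of calls does not show that the responses were alike. The 26 genes called in DRG were chosen from the DRG libraries used here, which favours a greater response in DRG, and their values are given as a description. Ptges, Arntl and Cx3cl1 differed most by p, by 1.61 ± 0.28, 1.12 ± 0.22 and 1.10 ± 0.18 on the log2 scale, DRG minus paw, each with an adjusted p of 0.194. Nfkbie and Relb, whose log2 differences were larger in paw, had negative values of -0.79 ± 0.24 and -0.52 ± 0.18 (adjusted p = 0.371 and 0.402). For 1190002H23Rik, lower in DRG and positive in paw, the value was -1.32 ± 0.43 (adjusted p = 0.387). In this gene a negative value is the direction that the choice of genes favours.

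**Figure D5:**
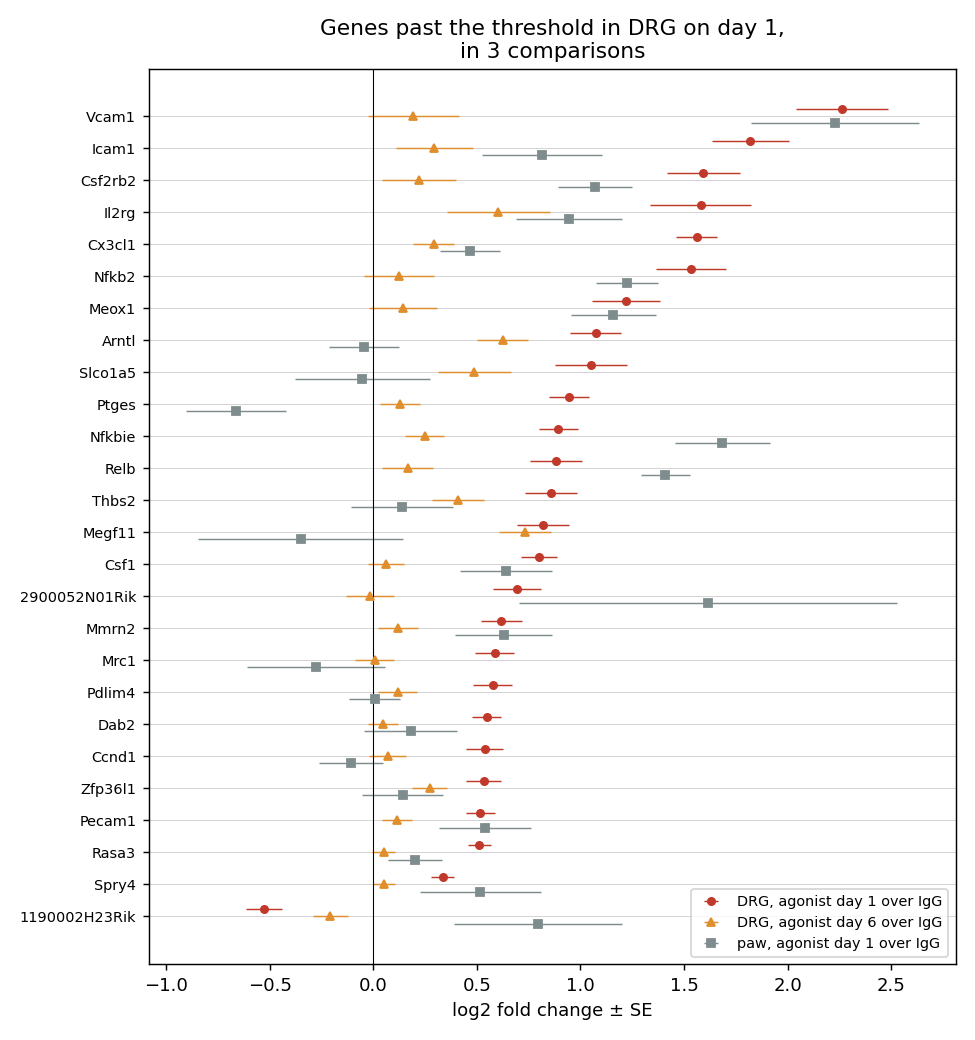
Log2 fold change with its SE of the 26 genes called in DRG on day 1 (red circles), in DRG on day 6 (orange triangles) and in paw on day 1 (grey squares), each over IgG of the same tissue, with the 2 DRG comparisons sharing their IgG libraries. The triangles lie near 0 for most genes, while the squares range from -0.66 for Ptges to 2.23 for Vcam1.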

How the data were processed

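RNA was measured by sequencing of polyadenylated RNA (about 500 ng, stranded kit, 50 bp single reads, per the labels' protocols). The authors deposited raw read counts for each gene in each library. The submitters' processing notes name HTSeq, TopHat2, bcl2fastq and the build mm9; versions, annotation and strand setting are not given in the sources used here, so overlapping and antisense genes are uncertain. Reads placed at several positions are left out by HTSeq. The 5 summary lines per file were removed, leaving 22609 gene symbols. Depth per library was 2.16e+07 to 3.30e+07 reads in genes in the 6 libraries compared, and no 2 libraries were identical.

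Groups were taken from the labels. All 9 DRG libraries were fitted together in R 4.3.3 by edgeR 4.0.16, with limma 3.58.1, TMM scaling, the default filter on low counts and the robust quasi-likelihood F test, 2-sided. Paw was fitted likewise, and the difference between tissues as an interaction over 18 libraries. P-values were adjusted by Benjamini-Hochberg across every gene of a comparison, and 0.05 was the threshold. The SE of a log2 fold change was taken as its size divided by the square root of F. The fits were tested on data simulated with the estimated spread of each gene. In DRG on day 1 edgeR recovered 91 of 100 genes changed 2-fold and 95 of 100 changed 4-fold. False calls were 12 of 198 by edgeR, 10 of 196 by limma voom and 23 of 212 by DESeq2. The fit of the difference between tissues recovered 43 of 100 genes changed 2-fold and 85 of 100 changed 4-fold.

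Genes named are all those called in DRG on day 1, those next in p, all LTβR and non-canonical NF-κB genes, and in other lists the called members or those with the smallest p; some genes allowed by the rule are left out, and 13 outside it (Atf3, Cd34, Cxcl1, Il7, Lars2, Mgl2, Mx1, Per3, Ptgs1, Ptgs2, Rmrp, Scn10a and Trpv1) were chosen after values were seen. The 51 lists held 821 symbols, of which 812 were in the files, 7 were found under older symbols and 2 were not found. The genes and lists were chosen with earlier results of these data known. Alternatives were RLE and upper-quartile scaling, no filter, a filter of 1 CPM in 3 libraries, DESeq2 1.42.0, limma voom with quality weights, the replicate number as a block, only the groups compared, a skeletal muscle covariate, and each library left out.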

Additional observations from a re-analysis of the deposited data

How the results depend on the processing

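The 26 calls in DRG on day 1 became 131 with DESeq2 (112 higher, 19 lower), all 26 among them, and 11 when only the 2 groups compared were fitted, 10 of them among the 26; leaving out 1 library gave 8 to 35. RLE, upper-quartile, no filter, the stricter filter, limma voom and the muscle covariate gave 26, 30, 38, 26, 36 and 27. The labels give only numbers, so these were not taken as pairs. Deviations of same-numbered DRG libraries from their group means had correlations of -0.692 to -0.0968. Deviations from a mean of 3 libraries depend on one another, so these values cannot exclude a batch shared by number. With the replicate block 29 genes were called in DRG on day 1, 20 of them among the 26. The block gave 0 calls in paw, 0 in DRG on day 6 and 0 for the difference between tissues. The 1 call in paw became 209 with DESeq2, 0 with only the groups compared, 2 with the muscle covariate and 0 to 1 without single libraries. In DRG on day 6 the 0 calls became 2 with DESeq2, and for the difference 59 with DESeq2 and 0 to 1 without single libraries. The cause of these shifts was not tested. With the block, Vcam1, Thbs2, Il2rg, Spry4, Mrc1 and Slco1a5 lost their calls. None of the 26 genes changed sign under any of these alternatives, whereas some uncalled genes near 0, such as Ltb, did when a library was left out, and 10 of the 26 kept their call under all 9 alternatives that use every library of the groups: Nfkb2, Dab2 and the 8 that also passed with any 1 library left out. With 3 libraries a group, genes such as Ccl2, Ccl7 and Cxcl10 had large differences that their spread did not let pass.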

Other observations

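Genes of fibroblasts and of the coverings of nerve and ganglion were another group with a shared direction. All 19 tested members had positive log2 differences between agonist and IgG DRG, 6 of them without overlap, with a median of 0.27, and of 0.12 without IgG library 1. By edgeR and limma voom 0 passed, with 7 at an unadjusted p under 0.05 and 1 called by DESeq2. The collagen gene Col3a1 had 735, 679 and 772 CPM in agonist DRG against 465, 644 and 608 CPM in IgG DRG (log2 0.35 ± 0.11, edgeR adjusted p = 0.455), and Cldn1, a tight junction gene of perineurium, had 63.5, 37.3 and 50.7 CPM in agonist DRG against 30.4, 30.1 and 33.5 CPM in IgG DRG (log2 0.69 ± 0.20, edgeR adjusted p = 0.449). The summed level of the list overlapped, at 5028 to 5341 CPM in agonist and 3615 to 5372 CPM in IgG DRG, with IgG library 1 the lowest.

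Aqp4, the water channel gene of glia, had 20.3, 15.5 and 14.0 CPM in agonist DRG against 5.73, 7.90 and 9.66 CPM in IgG DRG and did not pass (log2 1.09 ± 0.20, edgeR adjusted p = 0.0944), while the central myelin gene Mobp stayed at 0.261 to 1.13 CPM in these 6 libraries. Xbp1, a transcription factor of the unfolded protein response, had 121, 109 and 113 CPM in agonist DRG against 93.8, 92.9 and 91.9 CPM in IgG DRG (log2 0.30 ± 0.06, edgeR adjusted p = 0.0944). Among 17 tested immediate early genes 5 were higher without overlap and 0 passed by edgeR, DESeq2 or limma voom, with 4 at an unadjusted p under 0.05; Fos had 12.2, 11.3 and 9.05 CPM in agonist DRG against 6.72, 7.39 and 8.82 CPM in IgG DRG (log2 0.50 ± 0.22, edgeR adjusted p = 0.669). Of the genes next in p to those called, Chadl, Lbh, Ly6e and Cd300lg were higher and Folh1 was lower without overlap, with edgeR adjusted p of 0.0510, 0.0551, 0.0620, 0.0598 and 0.0548 and log2 differences of 0.51, 0.43, 0.66, 0.62 and -0.39.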
